A study of Mus musculus with 14 samples.

Results

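The 10 genes described here encode the NF-kB transcription factor subunits (Nfkb1, Nfkb2, Rel, Rela and Relb) and proteins that inhibit the pathway (Nfkbia, Nfkbib, Nfkbie, Nfkbiz and Tnfaip3). They were taken by symbol from the 21887 protein-coding genes of the RefSeq annotation of the mouse genome, and all 10 were found. H3K9cr and H3K9ac, the crotonylated and acetylated forms of histone 3 lysine 9, were mapped by ChIP-seq in mouse kidneys, and 14 lists of peaks were analysed here. The groups were kidneys of control and UUO mice, each in WT and in ACSS2-/- animals. In UUO (unilateral ureteric obstruction), tying off the ureter of 1 kidney leads to fibrosis of that kidney, and the methods describe a sham operation for the controls. ACSS2 is an acyl-CoA synthetase that makes crotonyl-CoA and acetyl-CoA, and ACSS2-/- mice lack it in all cells through a CRISPR/Cas9 deletion. The methods give the mice as C57BL/6J aged 6 to 8 weeks, and they give a time from obstruction to harvest for the drug-treated mice but not for these kidneys, and no source says whether the libraries of a group came from separate mice, so the p-values measure the spread between libraries only. For H3K9cr there were 2 libraries from each of the 4 groups. For H3K9ac there were 2 per UUO group but only 1 per control group.

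NF-kB proteins bind DNA as pairs of subunits. In resting cells, inhibitor proteins of the IkB family hold these pairs in the cytoplasm. Signals such as IL-1β and TNF activate the IkB kinase, which marks the inhibitors for breakdown, so that the subunits enter the nucleus and switch on cytokine genes and also genes of their own inhibitors, which ends the response. In the injured kidney, the pathway is known for driving cytokine production in tubular cells and infiltrating leukocytes.

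The value used throughout was locus cover, the length in kb of a gene and the 10 kb beyond each of its ends that lay inside peaks of a library. The lists hold positions of peaks and no height, so cover states how much of a locus passed the peak threshold and not how strong the mark was. An H3K9cr list covered between 29.4 and 64.6 Mb of the genome and an H3K9ac list between 17.7 and 51.1 Mb. The lists of UUO libraries were mostly shorter than those of control libraries, and the median ratio of UUO to control cover over all genes was 0.854 for H3K9cr and 0.604 for H3K9ac (log2 -0.23 and -0.73). Divided by the covered length of the library, the same medians were 1.16 and 1.15 (log2 0.21 and 0.20). Cover is therefore also given as a share of the covered length, in bp per Mb (ppm), where the scales differ. Whole kidneys hold many cell types, and the cover of cell type markers moved with UUO. The summed cover of 15 leukocyte marker genes was 12.8 to 26.4 kb in control and 37.5 to 87.8 kb in UUO H3K9cr libraries, and that of 14 proximal tubule marker genes was 84.9 to 170 kb in control and 19.2 to 40.3 kb in UUO. Among the leukocyte markers, Itgam had no cover in any library. For H3K9ac, the summed cover of the leukocyte markers was 19.4 to 35.5 kb in control and 25.4 to 76.1 kb in UUO, and that of the proximal tubule markers was 88.7 to 127 kb and 10.2 to 31.3 kb. In whole tissue, more cells of a type and more of the mark in each cell cannot be told apart, and the part of cell makeup in the results below was not tested. Peaks on the Y chromosome were absent from 6 libraries and numbered 2 to 14 in the other 8, and 4 lists carry in their peak names a number other than the replicate number of the label. Within each mark the labels give every group another antibody catalogue number, while the antibody list of the study names a single product per mark, so if the labels are right, antibody and group cannot be told apart. Cover of the Acss2 locus was between 0.76 and 6.49 kb in all libraries, which is no check of the deletion, since a peak list does not show which exons are missing.

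The 250 bases before the annotated start sites of 5 genes are shown because these genes held a match to the kappaB consensus, the sequence that NF-kB pairs bind, and because every library had a peak over or within 1 kb of the first start site of each. Sequences are from RefSeq on GRCm38.p6, run 5′ to 3′ along the gene, and carry the match on either strand in capitals. Adjoining capitals are matches that overlap. The second start site of Tnfaip3 is shown for contrast. It was noticed after its values were seen, with peaks in UUO libraries and in no control library.
Nfkb2, first start site (chr19:46304487-46304736, plus strand): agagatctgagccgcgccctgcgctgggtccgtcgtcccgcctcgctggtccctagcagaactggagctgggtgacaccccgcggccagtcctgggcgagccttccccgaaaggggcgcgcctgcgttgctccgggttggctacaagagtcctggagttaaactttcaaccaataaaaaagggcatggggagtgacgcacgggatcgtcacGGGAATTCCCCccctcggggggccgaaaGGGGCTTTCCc
Rel (chr11:23770970-23771219, minus strand): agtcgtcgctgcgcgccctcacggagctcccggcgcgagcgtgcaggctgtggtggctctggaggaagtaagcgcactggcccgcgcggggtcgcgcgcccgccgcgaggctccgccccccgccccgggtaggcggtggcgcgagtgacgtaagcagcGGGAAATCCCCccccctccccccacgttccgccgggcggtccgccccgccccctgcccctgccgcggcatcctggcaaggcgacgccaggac
Nfkbia (chr12:55492648-55492897, minus strand): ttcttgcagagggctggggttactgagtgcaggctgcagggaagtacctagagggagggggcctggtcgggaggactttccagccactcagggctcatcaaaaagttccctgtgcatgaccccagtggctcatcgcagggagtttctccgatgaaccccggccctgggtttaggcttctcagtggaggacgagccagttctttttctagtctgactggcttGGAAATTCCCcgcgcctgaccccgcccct
Nfkbie (chr17:45555450-45555699, plus strand): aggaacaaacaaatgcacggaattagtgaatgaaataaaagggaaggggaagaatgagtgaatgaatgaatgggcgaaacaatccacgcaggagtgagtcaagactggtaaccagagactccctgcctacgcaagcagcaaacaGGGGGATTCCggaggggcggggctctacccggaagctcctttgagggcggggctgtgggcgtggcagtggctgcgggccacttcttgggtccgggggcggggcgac
Tnfaip3, first start site (chr10:19015411-19015660, minus strand): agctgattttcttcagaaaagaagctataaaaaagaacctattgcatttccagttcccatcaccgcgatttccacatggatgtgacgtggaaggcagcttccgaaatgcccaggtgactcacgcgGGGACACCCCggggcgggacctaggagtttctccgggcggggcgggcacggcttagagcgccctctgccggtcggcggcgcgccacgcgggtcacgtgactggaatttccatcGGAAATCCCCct
Tnfaip3, second start site (chr10:19011964-19012213, minus strand): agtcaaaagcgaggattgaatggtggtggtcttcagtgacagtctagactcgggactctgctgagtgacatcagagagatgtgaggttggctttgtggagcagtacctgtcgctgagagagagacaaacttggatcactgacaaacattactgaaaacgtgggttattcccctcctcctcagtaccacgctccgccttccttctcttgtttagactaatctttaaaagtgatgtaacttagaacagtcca

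RefSeq start sites were used for 7 of the 10 genes, with 10 windows of 300 bases (250 before and 50 after the start), and 7 windows of 5 genes held at least 1 match. Of 32851 such windows in all genes, 4.51% held a match. Rel had its 2 overlapping matches 92 to 82 bases before the start, Nfkbia had 1 match 29 to 20 bases before, and Nfkbie had 1 match 106 to 97 bases before. Tnfaip3 had 1 match 125 to 116 and another 12 to 3 bases before its first start, and none at its second. The windows of Rela and Nfkbib held no match, which says only that these letters are not in them. A match is a stretch of letters and no measure of binding. GC content was 47.0% in the window of the second Tnfaip3 start and from 56.3% (Nfkbib) to 75.0% (Rel) in the others. Over all windows the median was 52.7% and the quartiles were 45.7% and 61.7%. The share of windows of like GC content that held a match was not computed.

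All 10 genes had a peak of each mark at a start site or gene end in every library. Counted within 1 kb of the start site, or of either gene end for Nfkb1, Relb and Nfkbiz, a peak was present in 14 of 14 libraries for each gene. The 7 genes with a listed start site all had a peak within 1 kb of it in every library. Over 17492 protein-coding genes with a listed start site, 48.2% had such a peak in every library and 34.8% in none. Gene ends were not counted over all genes. The 10 loci held 56 separate regions once the peaks of all libraries were merged. Of these, 14 regions were present in every library and 25 in a single library. The regions seen in UUO libraries only numbered 16 (over 8 libraries) and those seen in control libraries only numbered 17 (over 6 libraries).

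**Figure D1:**
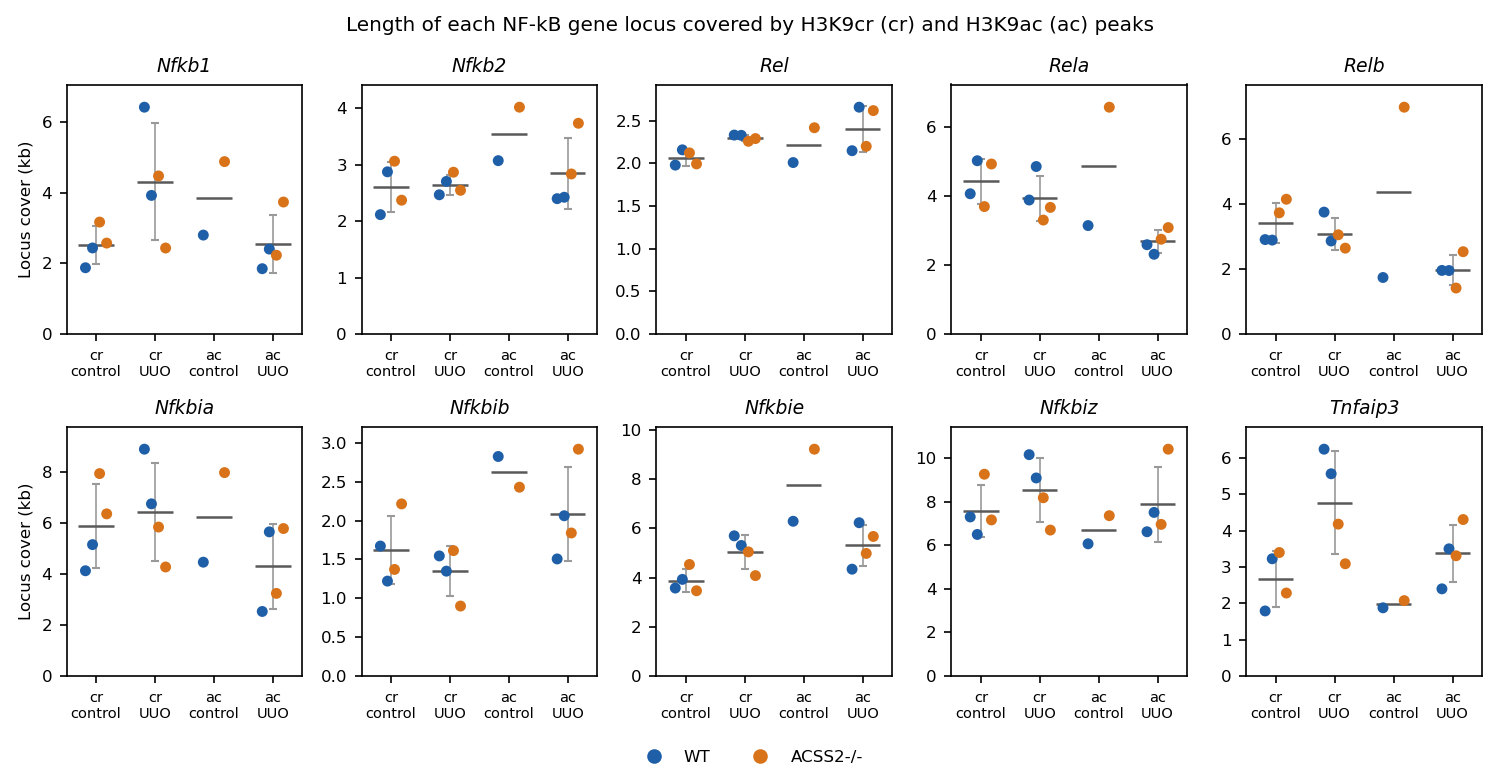
Locus cover in kb (y axis, from 0) of the 10 genes in control and UUO libraries of H3K9cr (cr) and H3K9ac (ac), with 1 point per library coloured by genotype. Lines are means and bars are SD where a class has 4 libraries, and the 2 H3K9ac control libraries have no bar. Rel in H3K9cr is the gene whose 4 UUO libraries all lay above its 4 control libraries.

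UUO was compared with control for H3K9cr over both genotypes, 4 libraries against 4, which asks where crotonylation of these loci differs in fibrotic kidneys. Rel had slightly more cover in every UUO library than in any control library, and Tnfaip3, Nfkb1 and Nfkbie had the largest positive differences without separating the groups. A gene was called where no UUO library overlapped with a control library. By this rule 1 of 10 genes was higher (background 2.34% of 16360 genes) and 0 of 10 were lower (background 18.3%). The exact permutation test with Benjamini-Hochberg adjustment over all genes called 0 of 10 at 0.05, and Rel alone had an unadjusted p below it. By limma, 0 of 10 passed after adjustment (background 15.4%, with 2.0% higher and 13.4% lower) and 3 (Nfkb1, Nfkbie and Tnfaip3) before it. The shares of all genes with an unadjusted p under 0.05 were not computed for either test, so these unadjusted counts have no background. Without ACSS2-/- UUO replicate 2, the smallest of the H3K9cr lists, 4 of 10 were higher with no overlap (Nfkb1, Rel, Nfkbie and Tnfaip3, background 6.55%) and 0 were lower (background 19.2%). The median difference over the 10 genes was 0.39 kb, against -0.31 kb over all genes, and it was positive in 7 of them (70%), against 28.5% of all genes.

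Rel encodes c-Rel, a subunit that is prominent in lymphocytes and myeloid cells. Its locus (chr11:23736847-23770969 with 10 kb either side) held a single peak in each of the 14 libraries, over the start site. In control kidneys the H3K9cr cover was 1.98 and 2.16 kb in WT replicates 1 and 2 and 2.12 and 1.99 kb in ACSS2-/- replicates 1 and 2. In UUO kidneys it was 2.33 and 2.33 kb in WT and 2.26 and 2.29 kb in ACSS2-/-. Every UUO library was above every control library, in each genotype as well as over both. The means were 2.30 ± 0.035 kb (SD, n = 4) and 2.06 ± 0.090 kb (SD, n = 4), a ratio of 1.12 with a two-sided exact permutation p of 0.0286, the smallest the design allows, and an adjusted p of 0.139. The peak was longer on the side of the gene body, where it reached 891 to 1172 bases past the start in control and 1279 to 1344 bases in UUO libraries, while before the start it reached 821 to 1088 and 978 to 1012 bases. How many of all genes had peaks that separated in reach was not computed.

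Nfkb1 encodes the precursor of a small DNA-binding subunit, and its locus (chr3:135584655-135691969 with 10 kb either side) is the longest of the 10. H3K9cr cover in control kidneys was 1.88 and 2.44 kb in WT and 3.17 and 2.58 kb in ACSS2-/-. In UUO kidneys it was 6.43 and 3.93 kb in WT and 4.48 and 2.44 kb in ACSS2-/-. Both WT UUO libraries were above all control libraries, whereas ACSS2-/- UUO replicate 2 lay among the controls. The means were 4.32 ± 1.65 and 2.52 ± 0.53 kb (SD, n = 4 each), with an exact permutation p of 0.114 and an adjusted p of 0.301. The region at the end of the gene with the higher coordinate covered 1.88 to 2.60 kb in control and 2.08 to 2.91 kb in UUO libraries, so most of the added cover lay elsewhere. The regions found in both WT UUO libraries and in no other library numbered 3, of which 2 lay inside the gene and 1 beyond its end with the lower coordinate.

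Nfkb2 encodes a second precursor subunit, which serves the alternative branch of the pathway. Its H3K9cr cover was 2.12 to 3.06 kb in control and 2.47 to 2.87 kb in UUO libraries, with means of 2.61 ± 0.44 and 2.65 ± 0.18 kb (SD, n = 4 each), and the groups overlapped (exact permutation p = 0.886). Its 3 annotated start sites lay under 1 peak in the H3K9cr libraries, and an lncRNA (4833438C02Rik) has its ends inside the same locus.

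Rela, whose product carries the activation domain of the most common NF-kB pair, and Relb, the partner subunit of the alternative branch, had lower means in UUO that did not separate. For Rela the H3K9cr cover was 3.69 to 5.02 kb in control and 3.30 to 4.85 kb in UUO libraries (exact permutation p = 0.257). For Relb it was 2.88 to 4.14 kb and 2.64 to 3.74 kb (exact permutation p = 0.371). On the share of covered length both differences turned positive, by 17.8 and 15.0 ppm, and were not called there either. The Rela locus had a second region between 10.3 and 12.7 kb past the lower gene end, toward the neighbouring gene Sipa1, in all 8 H3K9cr and 5 of 6 H3K9ac libraries. At Relb, 1 region lay at the end of the neighbouring gene Clasrp in all 14 libraries.

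Tnfaip3 encodes a ubiquitin-editing enzyme that switches the pathway off and is itself an NF-kB target. Its H3K9cr cover in control kidneys was 1.79 and 3.23 kb in WT and 3.40 and 2.29 kb in ACSS2-/-. In UUO kidneys it was 6.25 and 5.57 kb in WT and 4.18 and 3.09 kb in ACSS2-/-. ACSS2-/- UUO replicate 2 lay below 2 control libraries, and the other UUO libraries lay above all of them. The means were 4.77 ± 1.41 and 2.68 ± 0.77 kb (SD, n = 4 each), a ratio of 1.78 with an exact permutation p of 0.0857 and an adjusted p of 0.253. With 3 kb in place of 10 kb beyond the gene ends the groups separated, with a difference of 2.54 kb and an exact permutation p of 0.0286 (n = 4 each).

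The peak over the first Tnfaip3 start site was longer in UUO. It measured 1.79, 1.81, 2.02 and 1.90 kb in the control and 3.12, 2.49, 3.19 and 2.76 kb in the UUO H3K9cr libraries, in the order WT 1, WT 2, ACSS2-/- 1 and ACSS2-/- 2, and the ranges did not overlap. The share of all genes whose start site peaks separated in this way was not computed. For H3K9ac the same peak measured 1.88 and 2.08 kb in control and 1.86 to 2.85 kb in UUO libraries, which overlapped. A region at the second start site (chr10:19010019-19012893) was noticed after its values were seen and is described without a test. It covered 1515 and 1775 bp in the WT UUO, 319 and 0 bp in the ACSS2-/- UUO and 0 bp in each of the 4 control H3K9cr libraries. For H3K9ac it covered 0 and 1213 bp in WT UUO, 520 and 1462 bp in ACSS2-/- UUO and 0 bp in both control libraries. The region was thus present in 3 of 4 UUO libraries of each mark and in 0 of 6 control libraries. A further region of the gene body, between 6.72 and 8.52 kb above the lower gene end, had H3K9cr peaks in 2 control and 4 UUO libraries and no H3K9ac peak.

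**Figure D2:**
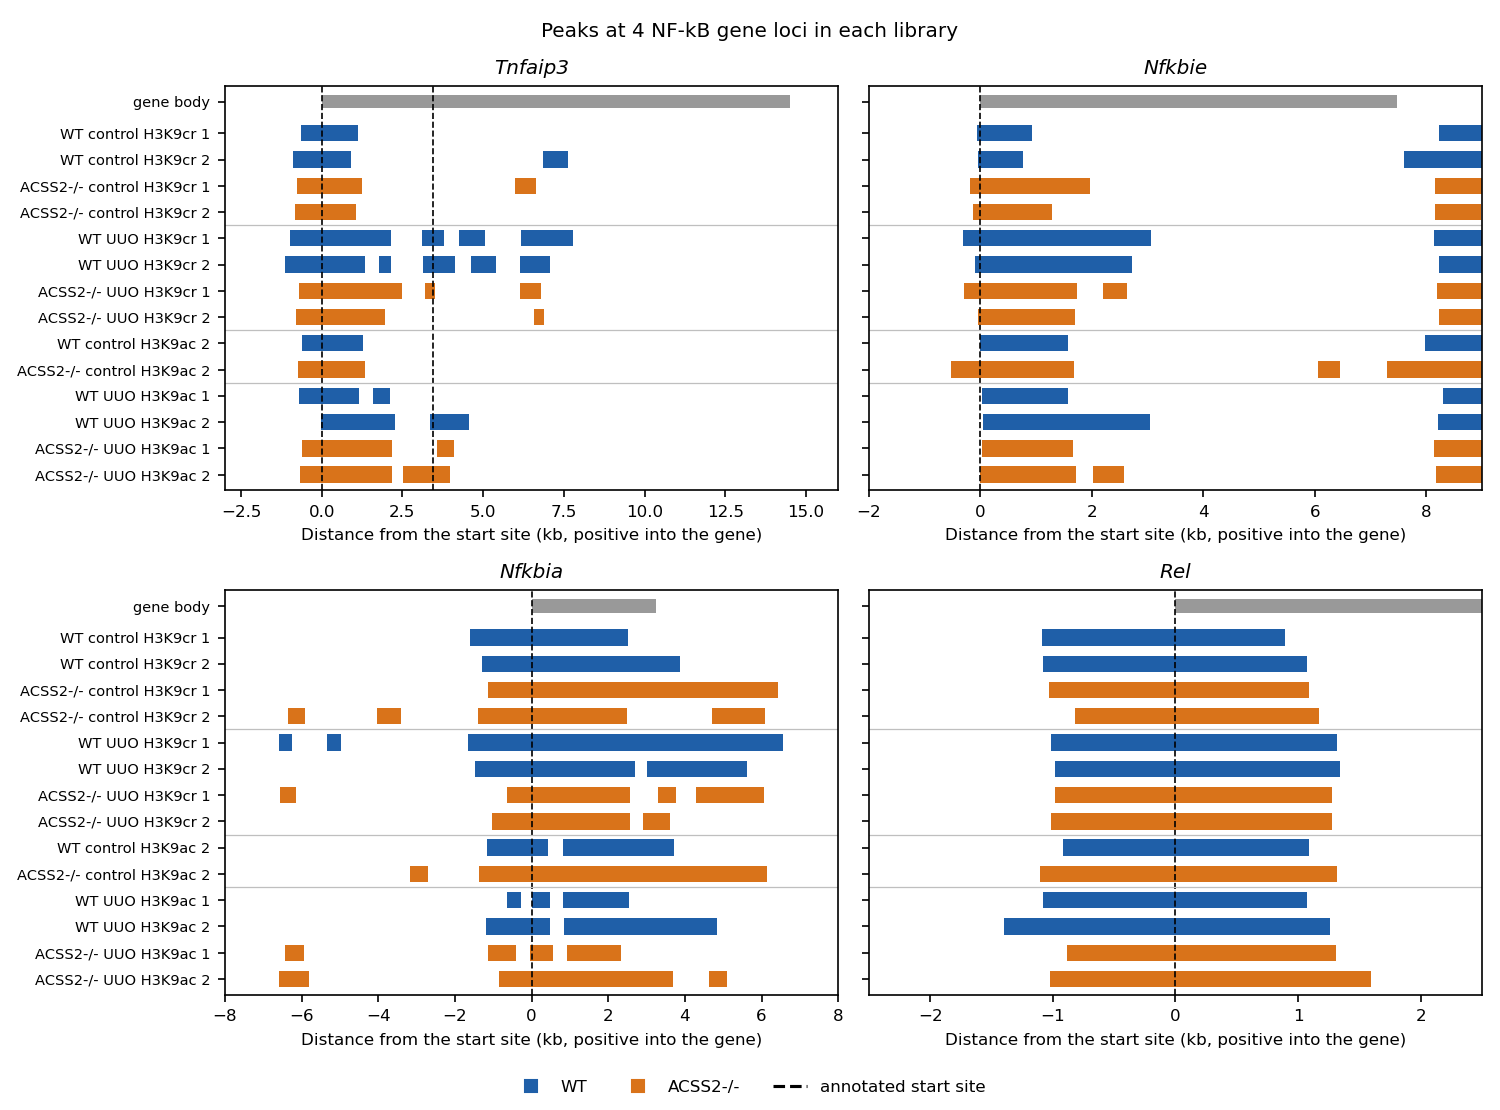
Peaks of each library (rows, grouped by mark and operation, coloured by genotype) at Tnfaip3, Nfkbie, Nfkbia and Rel, by distance from the first start site in kb (x axis, positive into the gene). Grey bars are gene bodies and dashed lines annotated start sites. At the second Tnfaip3 start, peaks appear in 6 of 8 UUO and in 0 of 6 control libraries, a region noticed after its values were seen.

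Nfkbie encodes IkB epsilon, an inhibitor that is induced by the subunits it binds. Its H3K9cr cover was 3.58, 3.93, 4.54 and 3.47 kb in control and 5.70, 5.31, 5.05 and 4.08 kb in UUO libraries, in the same order. ACSS2-/- UUO replicate 2 was the UUO library that overlapped with the controls. The means were 5.04 ± 0.69 and 3.88 ± 0.48 kb (SD, n = 4 each), with an exact permutation p of 0.0571 and an adjusted p of 0.202. The start site peak measured 0.81 to 2.17 kb in control and 1.73 to 3.37 kb in UUO libraries and extended almost wholly into the gene, to 771 to 1974 bases past the start in control and 1696 to 3055 bases in UUO. The locus also holds the ends of Slc35b2 and Hsp90ab1, whose peaks were present in all 14 libraries.

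Nfkbia encodes IkB alpha, the main inhibitor and a classical early target of NF-kB. Its H3K9cr cover was 4.14, 5.16, 7.95 and 6.37 kb in control and 8.91, 6.76, 5.85 and 4.28 kb in UUO libraries, in the same order. The control libraries were lower in WT than in ACSS2-/- and the UUO libraries were the other way round, so the pooled means of 6.45 ± 1.93 and 5.91 ± 1.64 kb (SD, n = 4 each) did not separate (exact permutation p = 0.657). The peak over the start reached 2484 to 6434 bases past it in control and 2556 to 6550 bases in UUO, where the gene is 3.24 kb long, so in some libraries it ran beyond the far gene end.

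Nfkbiz encodes IkB zeta, a nuclear family member that can also support transcription of some cytokine genes, and Nfkbib encodes IkB beta. Nfkbiz had the highest mean H3K9cr cover of the 10 loci in both groups, 7.55 ± 1.19 kb in control and 8.53 ± 1.47 kb in UUO (SD, n = 4 each, exact permutation p = 0.314), though loci differ in length and neighbours. More than 4 kb of it lay in every library in a region inside the gene, away from both ends. Nfkbib, with 1.62 ± 0.44 kb in control and 1.35 ± 0.32 kb in UUO (SD, n = 4 each, exact permutation p = 0.4), had the lowest mean, and its start site region also lies at the end of Sirt2, the next gene.

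On the share of covered length, H3K9cr cover was higher in UUO at 6 of 10 genes (background 16.4%) and lower at 0 (background 7.42%). The 6 were Nfkb1, Rel, Nfkbia, Nfkbie, Nfkbiz and Tnfaip3, and the summed cover of all 10 loci was 655 to 791 ppm in control and 1029 to 1279 ppm in UUO libraries. Nfkbiz, Tnfaip3 and Nfkb1 had the largest differences, of 79.6, 74.4 and 63.4 ppm, each with an exact permutation p of 0.0286 (n = 4 each). Over all genes the balance of higher to lower calls turned with the scale, from 383 and 2989 in kb to 2683 and 1214 by share.

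**Figure D3:**
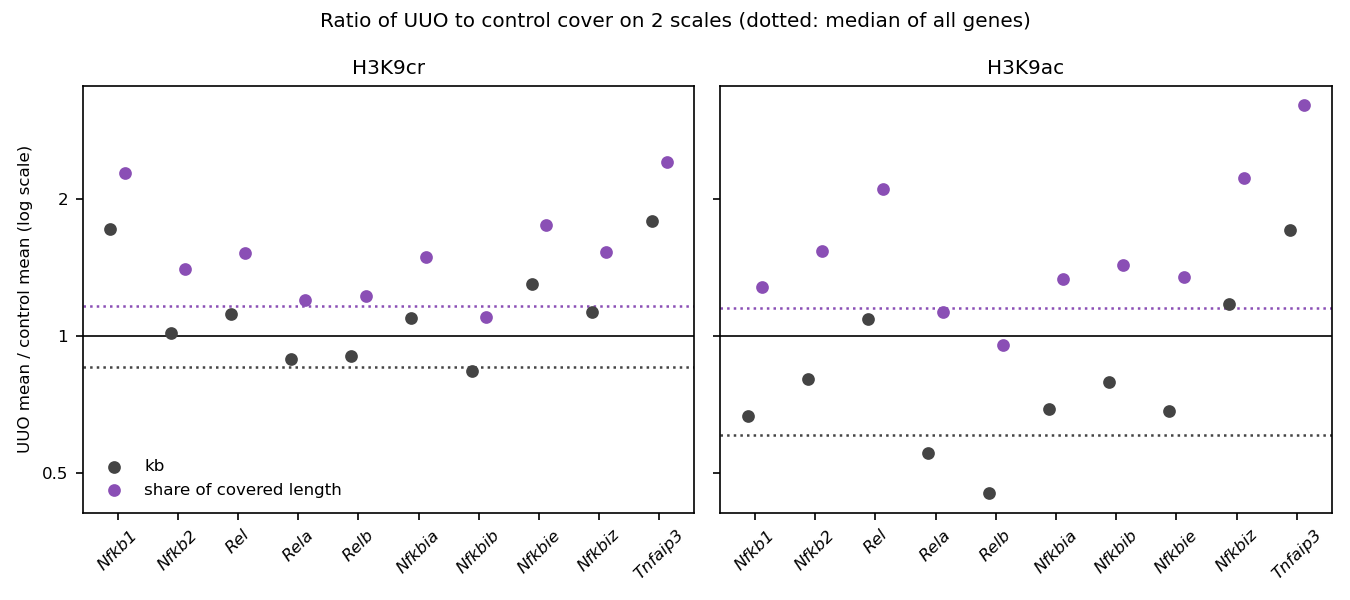
Ratio of the UUO mean to the control mean of locus cover (y axis, log scale) for each gene, in kb and as a share of the covered length of the library, for H3K9cr and H3K9ac. Dotted lines are the medians of all genes, 0.854 and 1.16 for H3K9cr and 0.604 and 1.15 for H3K9ac.

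For H3K9ac, 4 UUO libraries were compared with 2 control libraries, so an exact p cannot fall below 0.0667. Tnfaip3 had more cover in UUO and Rela and Nfkbie had less. By the rule of no overlap, 1 of 10 genes was higher (background 0.375% of 15716 genes) and 2 of 10 were lower (background 49.7%). By limma, 0 of 10 passed after adjustment (background 27.7%, with 0.216% higher and 27.5% lower) and 2 (Tnfaip3 and Rela) before it. The share of all genes with an unadjusted p under 0.05 was not computed, so this count has no background. Without the WT control, 1 gene was higher (background 0.48%) and 6 were lower (background 84.0%). Without the ACSS2-/- control, 3 were higher (background 2.22%) and 2 were lower (background 53.5%), and without ACSS2-/- UUO replicate 2, 1 was higher (background 0.386%) and 5 were lower (background 74.1%). By share, 6 of 10 were higher (background 23.1%) and 0 were lower (background 11.2%), and Rela and Nfkbie then had positive differences of 14.1 and 63.1 ppm, so that the direction of these 2 genes depends on the scale. The 6 were Nfkb1, Nfkb2, Rel, Nfkbib, Nfkbiz and Tnfaip3. Of these, Nfkb1, Nfkb2 and Nfkbib had lower means in UUO in kb, so their direction depends on the scale too. The UUO mean was above the control mean at 3 of the 10 genes in kb and at 9 by share.

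Tnfaip3 had H3K9ac cover of 1.88 kb in the WT and 2.08 kb in the ACSS2-/- control library. In UUO it had 2.40 and 3.50 kb in WT and 3.31 and 4.31 kb in ACSS2-/-. All UUO libraries were above both controls, on either scale, with means of 3.38 ± 0.78 kb (SD, n = 4) and 1.98 ± 0.14 kb (SD, n = 2), a ratio of 1.71 and an exact permutation p of 0.133. Rela had 3.14 and 6.57 kb in the control libraries and 2.59, 2.31, 2.75 and 3.08 kb in the UUO libraries (exact permutation p = 0.0667), a gap that is narrow for the WT control. Nfkbie had 6.29 and 9.23 kb in control and 4.35, 6.23, 4.99 and 5.68 kb in UUO (exact permutation p = 0.0667), and here too the WT control was close to the highest UUO library. The groups of Nfkbie overlapped once peaks near the ends of other genes were left out (difference -0.38 kb). The ACSS2-/- control library held the highest H3K9ac cover of Nfkb1, Nfkb2, Rela, Relb, Nfkbia and Nfkbie, and it covered 51.1 Mb in all, the most of any H3K9ac list.

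ACSS2-/- was compared with WT for H3K9cr within each operation, which asks whether these loci carry less crotonylation without the enzyme. Where a call needed the genotypes to be apart within each operation, 0 of 10 genes separated in the higher direction (background 3.25%) and 0 in the lower (background 0.776%). The exact permutation test with genotype permuted within operation had a smallest possible p of 0.0556. It gave unadjusted values from 0.222 to 0.944 and called none. By limma, 0 of 10 passed after adjustment (background 0.0%) and 0 before it, where the share of all genes was not computed. By share, 0 of 10 were higher (background 2.06%) and 1 was lower (Nfkbiz, -22.8 ppm, background 2.99%). The median difference was -0.24 kb for the 10 genes and 0.14 kb for all genes. The largest was -0.97 kb, for Tnfaip3, with an exact permutation p of 0.333 (n = 4 each).

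The genotypes were also compared in each operation alone, a split made after seeing the data, with 2 libraries against 2 and a smallest p of 0.333. In UUO kidneys, 6 of 10 genes were lower in ACSS2-/- (background 24.5%) and 0 were higher (background 6.9%). These were Rel, Rela, Nfkbia, Nfkbie, Nfkbiz and Tnfaip3. In control kidneys, 3 of 10 were higher in ACSS2-/- (Nfkb1, Relb and Nfkbia, background 46.8%) and 0 were lower (background 3.1%). The ACSS2-/- H3K9cr lists covered 64.6 and 51.4 Mb in control and 39.7 and 29.4 Mb in UUO, against 41.7 and 44.8 Mb and 44.6 and 35.0 Mb in WT, so the total cover of the lists moved the same way. By share, Nfkbia, Nfkbiz and Tnfaip3 stayed lower in ACSS2-/- UUO libraries, while Rel, Rela and Nfkbie overlapped. In control libraries by share, Nfkbia stayed higher in ACSS2-/- and Nfkb1 and Relb overlapped. Nfkb2, Rel, Rela, Nfkbie and Nfkbiz were lower there. The shares of all genes for these splits by share were not computed.

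Seen by genotype, H3K9cr cover in WT was higher in UUO at 6 of 10 genes (background 22.5%) and lower at 0 (background 27.5%). The 6 were Nfkb1, Rel, Nfkbia, Nfkbie, Nfkbiz and Tnfaip3, with differences of means of 3.02, 0.26, 3.19, 1.75, 2.72 and 3.40 kb. In ACSS2-/-, 1 gene was higher in UUO (Rel, background 4.44%) and 3 were lower (Rela, Relb and Nfkbia, background 55.6%). The difference of UUO from control was lower in ACSS2-/- than in WT at all 10 genes, as it was at 84.8% of all genes. For the contrast of these differences, the exact permutation p was between 0.0556 and 0.778, where 0.0556 (Nfkbia) is the smallest possible, so none passed 0.05. Genotype was permuted within operation, so a genotype difference in 1 operation alone can also lower this p. By share, the difference of UUO from control was positive at each gene in either genotype. Those of Rela, Relb and Nfkbia in ACSS2-/- were 27.4, 14.1 and 22.9 ppm, so their lower cover in UUO held in kb only. The difference by share was lower in ACSS2-/- than in WT at 5 of the 10 genes (Nfkb1, Relb, Nfkbia, Nfkbiz and Tnfaip3) and at 38.3% of all genes.

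**Figure D4:**
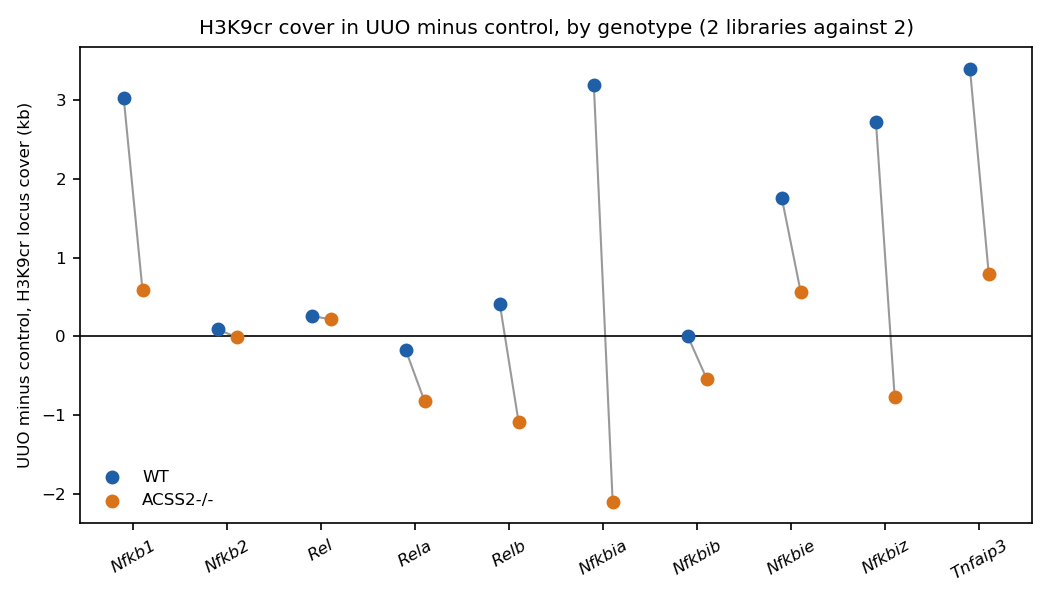
Mean H3K9cr locus cover in UUO minus that in control (y axis, kb) for each gene, with 1 point for WT and 1 for ACSS2-/- and a grey line joining them. The ACSS2-/- point is the lower of the 2 at each gene, and at Nfkbia the points are at 3.19 and -2.09 kb.

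For H3K9ac in UUO kidneys, 2 ACSS2-/- libraries were compared with 2 of WT (smallest exact p 0.333). Nfkb2 had 2.40 and 2.43 kb in WT and 2.84 and 3.74 kb in ACSS2-/-, and Rela had 2.59 and 2.31 kb in WT and 2.75 and 3.08 kb in ACSS2-/-. These 2 of 10 genes were higher (background 30.5%) and 0 were lower (background 1.78%). By limma, 0 of 10 passed after adjustment (background 0.0%) and 0 before it, where the share of all genes was not computed. By share, 1 gene was higher (Nfkb1, background 14.2%) and 2 were lower (Rel and Relb, background 17.5%), and Rela turned to -6.32 ppm. Without WT replicate 2, 9 genes were higher (background 56.1%) and 0 lower (background 4.4%), and without ACSS2-/- replicate 1, 8 were higher (background 84.9%) and 0 lower (background 2.23%). Without WT replicate 1, 2 were higher (background 37.3%) and 2 lower (background 11.3%), and without ACSS2-/- replicate 2, 2 were higher (background 33.9%) and 1 lower (background 29.1%).

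The marks were compared with each other within the 4 groups, 8 H3K9cr against 6 H3K9ac libraries. Where a call needed the marks to be apart within each group, 0 of 10 genes had more H3K9cr (background 7.85%) and 0 had less (background 1.25%). After adjustment the exact permutation test called 0 of 10, and limma called 1 as lower in H3K9cr (background 14.4%, with 12.7% higher and 1.63% lower). Before adjustment the exact permutation test gave 2 (Nfkbib and Nfkbie) and limma 3 (these and Tnfaip3). The shares of all genes with an unadjusted p under 0.05 were not computed, here or for the pairs below, so these counts have no background. Nfkbib had 0.9 to 2.21 kb of H3K9cr and 1.51 to 2.92 kb of H3K9ac, with a mean difference over the groups of -0.87 kb, an exact permutation p of 0.00926, an adjusted p of 0.0791 and a limma adjusted p of 0.0493. By the text of the study both marks were taken from the same kidney samples, so these p-values treat as independent libraries that may share a kidney. With the 6 pairs of equal replicate number as blocks and the 2 H3K9cr libraries with no partner left out, the difference of Nfkbib was -0.79 kb with an exact permutation p of 0.0625 (smallest possible 0.0312), the limma adjusted p was 0.205, and limma called 0 of 10 (background 6.41%, with 1 of 10 at an unadjusted p under 0.05). Nfkbie had 3.47 to 5.70 kb of H3K9cr and 4.35 to 9.23 kb of H3K9ac, a difference of -2.08 kb with an exact permutation p of 0.037 and an adjusted p of 0.16, and in the pairs a difference of -1.54 kb with an exact permutation p of 0.188. At Nfkbie, a region between 11.9 and 13.9 kb past the lower gene end, near the ends of Slc35b2 and Hsp90ab1, had H3K9ac peaks in 4 of 6 and H3K9cr peaks in 0 of 8 libraries. At the higher end of Relb the order was reversed, with 1625 to 2059 bp of H3K9cr in 8 libraries and 476 to 916 bp of H3K9ac in 5 of 6, while the ACSS2-/- control library had 2303 bp. By share, 0 genes had more (background 3.48%) and 5 had less H3K9cr (Nfkb2, Rel, Nfkbib, Nfkbie and Nfkbiz, background 27.3%).

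Other genes of the pathway were described from lists. Of 29 genes of kinases and adaptors, 0 had more and 6 had less H3K9cr cover in UUO (background, as above, 2.34% and 18.3%). The largest differences were those of Card10 (6.44 against 11.8 kb), a scaffold upstream of the IkB kinase, and of Chuk (4.06 against 8.02 kb), a catalytic subunit of that kinase. Traf5, Tab1 and Ripk1, adaptors and a kinase of TNF receptor and IL-1 receptor signalling, were lower by 3.52, 3.51 and 2.84 kb. On the share of covered length 9 of the 29 were higher (background 16.4%) and 3 were lower (background 7.42%). Card10, Chuk and Tab1 were lower on both scales, whereas Traf5 and Ripk1 were not called by share. For H3K9ac, 0 of the 29 were higher (background 0.375%) and 14 were lower (background 49.7%) in kb, and by share 9 were higher (background 23.1%) and 3 were lower (background 11.2%).

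Of 15 other inhibitors with cover, 1 was higher in UUO for H3K9cr (background 2.34%) and 0 were lower (background 18.3%). It was Nfkbid, which encodes another nuclear IkB protein, with 6.67 kb in UUO (5.36 to 8.04 kb) and 2.64 kb in control (2.47 to 2.94 kb), and it was higher on either scale and for H3K9ac too (4.10 against 2.64 kb). Of 22 target genes with cover, 4 were higher (background 2.34%) and 0 lower (background 18.3%) in H3K9cr. Tnf, the cytokine that activates the pathway, had 6.19 kb in UUO (3.12 to 8.33 kb) against 1.27 kb in control (0.68 to 2.19 kb), at a locus that also takes in the neighbouring lymphotoxin genes. Cd83, Cxcl10 and Ptgs2, which encode a surface protein of activated leukocytes, a chemokine and cyclooxygenase, had 3.88 against 1.51 kb, 2.84 against 1.80 kb and 0.675 against 0.0843 kb. These 4 were higher on the share of covered length as well (background 16.4%). For H3K9ac, Tnf was higher (4.28 against 2.09 kb) and Cxcl10 was lower in kb (0.749 against 1.92 kb). In H3K9ac in kb, 0.375% of all genes were higher and 49.7% were lower. There, 1 other inhibitor was higher and 9 were lower of 15, and 3 targets were higher and 5 were lower of 19. By share, 5 of these inhibitors were higher and 0 lower, and 8 of these targets were higher and 1 lower (background 23.1% and 11.2%). For H3K9cr by share, 6 of 15 other inhibitors and 10 of 22 targets were higher and 0 lower (background 16.4% and 7.42%). Between the genotypes, 0 of the 29 kinases and adaptors were called for H3K9cr. Of 15 other inhibitors 2, and of 22 targets 1, were lower in ACSS2-/- and 0 were higher (background 0.776% lower and 3.25% higher). Leukocyte markers with cover were higher at 7 of 14 and proximal tubule markers lower at 12 of 14 in the same H3K9cr comparison of UUO with control. Markers of distal nephron were lower at 4 of 9 and endothelial markers at 3 of 9, a stroma marker was higher at 1 of 9, and 0 of 10 injured tubule markers were called. In that H3K9cr comparison, which was in kb, 2.34% of all genes were higher and 18.3% were lower. By share, 6 of 10 injured tubule, 8 of 14 leukocyte and 3 of 9 stroma markers were higher, and 0 of each were lower. Proximal tubule markers were lower at 8 of 14 and higher at 0. Distal nephron markers were higher at 1 and lower at 3 of 9, and endothelial markers higher at 1 and lower at 2 of 9. By share, 16.4% of all genes were higher and 7.42% were lower.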

How the data were processed

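H3K9cr and H3K9ac ChIP-seq peaks of mouse kidneys were analysed in 14 libraries. According to the methods, the authors discarded reads with adapter, poly-N or low quality, aligned the rest with Bowtie2, removed organelle, poorly mapped and duplicate reads, and called peaks with MACS2 in each library. The files deposited by the authors hold peak positions in bp on mm10, with no score, so read depth is unknown and a longer list may be a deeper library. Tool versions and the control used for MACS2 are not given in the sources used here.

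Genes and start sites came from RefSeq GRCm38.p6. Cover of each gene with 10 kb either side was computed per library, groups came from the labels, and an exact permutation test (two-sided, of the difference of means) was run with Benjamini-Hochberg adjustment over all protein-coding genes with cover. A call means that the groups do not overlap, within each stratum where the arrangement was stratified. limma 3.58.1 on log2(kb + 1), 3 kb flanks, the longest 15988 peaks of every list, shares of covered length, peaks near other genes left out, a replicate block and leaving out each library were alternatives, and splits by genotype, operation or peaks on Y, a window without the gene ends and, between the marks, a crossed block and limma with pairs as a block were added after seeing the data. The code was tested on simulated data. Text names the 10 genes, their neighbours and, from each pathway list, at most 5 genes called in UUO for H3K9cr with the largest difference. The members and lists were chosen with earlier results of these data known. Python 3.11.15, numpy 2.4.6, pandas 2.3.3 and R 4.3.3 were used.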

Additional observations from a re-analysis of the deposited data

Results flagged for a closer look

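Nfkbia was picked out because the effect of UUO on its H3K9cr locus cover had opposite signs in the 2 genotypes, with no overlap of libraries in either. In WT, cover was 4.14 and 5.16 kb in control and 8.91 and 6.76 kb in UUO, an effect of 3.19 kb. In ACSS2-/-, it was 7.95 and 6.37 kb in control and 5.85 and 4.28 kb in UUO, an effect of -2.09 kb. The difference of the effects was -5.28 kb, with an exact permutation p of 0.0556, the smallest that permuting genotype within operation allows. The gene was picked by these same values, so this p is no separate evidence. Of all genes, 5.79% were higher in WT and lower in ACSS2-/- without overlap. As a share of the covered length the effects were 89.5 and 22.9 ppm, so the opposite sign held on the kb scale only.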

How the results depend on the processing

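The number of genes called of the 10, given with its direction and the share of all genes called that way, depended on the alternatives. For UUO against control in H3K9cr (1 called), it was 2 higher with 3 kb flanks (2.41%), 6 higher by share of covered length (16.4%), 3 higher with the longest peaks (3.13%), 2 higher with the replicate block (3.66%), 0 by limma, 6 higher in WT libraries alone (22.5%), 4 in ACSS2-/- libraries alone (1 higher, 4.44%, and 3 lower, 55.6%) and 4 higher in libraries with peaks on Y (11.7%). With 1 library left out it ranged from 1 to 4 (4 higher without ACSS2-/- UUO replicate 2, 6.55%, and 2 higher without ACSS2-/- control replicate 1, 4.27%). For H3K9ac (3 called), it was 6 higher by share (23.1%), 5 with the replicate block (3 higher, 2.63%, and 2 lower, 50.9%), 0 by limma and 3 to 7 with 1 library left out (7 without the WT control, of which 6 were lower, where 84.0% of all genes were). For ACSS2-/- against WT in H3K9cr (0 called), it was 1 lower by share (2.99%), 1 lower with the replicate block (2.12%), 6 lower in UUO libraries alone (24.5%), 3 higher in control libraries alone (46.8%) and 0 to 2 with 1 library left out (2 lower without WT control replicate 1, 3.02%). For H3K9ac in UUO (2 called), it was 5 with peaks near other genes left out. Of these, 4 were higher, as were 3026 of all 12128 genes tested, and 1 was lower (3.1%). The number was 7 higher with the replicate block (50.7%), 0 by limma and 3 to 9 with 1 library left out (9 higher without WT replicate 2, 56.1%). Between the marks (0 called), it was 5 with less H3K9cr by share (27.3%), 1 by limma and 0 to 2 with 1 library left out (2 with more H3K9cr without the ACSS2-/- control H3K9ac library, 12.1%). Peaks at the start in every library were found for 6 of the 10 genes with the longest peaks and for all 10 within 200 bp. The causes were not tested.

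By share of covered length, 3 called differences reversed, those of Rela (14.1 ppm) and Nfkbie (63.1 ppm) for UUO in H3K9ac and of Rela (-6.32 ppm) for ACSS2-/- in H3K9ac. Of 770 values of single genes under the alternatives, 81 gained a call in the same direction and 11 lost one. Another 86 had no call in the main comparison and changed sign. Some of these were called the other way, as were Nfkb1, Nfkb2 and Nfkbib by share for UUO in H3K9ac. Within a mark, nothing in the labels pairs equal replicate numbers, and the correlations of replicate differences between groups ran from -0.207 to 0.508. Between the marks in UUO, libraries of equal number had correlations of -0.223 in WT and -0.581 in ACSS2-/-, and the numbers in the peak names join the ACSS2-/- UUO libraries crosswise. With the replicate block crossed in UUO, chosen after seeing the data, 1 gene had less H3K9cr (2.77% of all genes), against 0 with the block as labelled. Depth is unknown, and with 2 libraries a group no exact p can fall below 0.333.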
